A study of Mus musculus with 11 samples.

Results

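The GABA-A receptor subunit genes were examined in RNA on ribosomes of hippocampal astrocytes, with Gabra2, the gene of the α2 subunit, set against 6 other subunits (Gabra3, Gabra4, Gabra5, Gabrb1, Gabrb2 and Gabrg1). The 7 genes were chosen by symbol from the 19 GABA-A receptor subunit genes of the mouse, among 39017 genes in the count table, because their levels in CPM (counts relative to library size) in the 3 groups of mice had been seen to place Gabra2 apart from the rest. Levels and fold changes of the subunits in these groups are therefore given as a description, with no test. All 19 were found in the table, and 15 of them had enough counts to enter every fit.

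The mice were females of 12 to 14 months, each giving 1 library. There were 3 WT (sham) mice, numbered F1, F3 and F4. The 4 ERβ cKO (sham) mice had the numbers F1, F3, F4 and F5, and the 4 WT (GDX) mice F1, F2, F3 and F4, and values of a group are listed in this order. Every group carried the mGFAP-Cre 77.6 transgene and the RiboTag allele, in which Cre leaves the ribosomal protein RPL22 with an HA tag, so that ribosomes of cells with Cre activity can be pulled down with the RNA they hold. The ERβ cKO mice carried in addition an Esr2 gene, which encodes estrogen receptor β, with exon 3 flanked by loxP sites on both copies. WT (GDX) mice had their ovaries removed at 2 months of age, whereas both other groups had sham surgery and kept their ovaries. All lines were on a C57BL/6J background. The Methods list separate breeding pairs for RiboTag mice with and without the loxP-flanked Esr2. Breeding line and genotype therefore cannot be told apart in comparisons of ERβ cKO (sham) with either WT group. Any cell with activity of the mouse Gfap promoter, now or in an ancestor, can hold tagged ribosomes, and the pulldown starts from homogenized hippocampus.

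GABA-A receptors are chloride channels that open when they bind GABA, the main inhibitory transmitter of the brain, and are built of several subunits, in most cases α and β subunits with a γ or a δ subunit. The α subunit sets much of the response to GABA and to benzodiazepines, and the β subunits form part of the GABA site. Neurons of the hippocampus make many of these subunits, α5 and α2 prominently among them, and astrocytes also carry functional GABA-A receptors, with γ1 counted among the subunits found in glia. Astrocytes take up GABA through its transporters, and extracellular GABA acts in turn on receptors outside synapses, which often hold α4, α5 or δ.

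Gabra2 lies in a cluster of 4 subunit genes on chromosome 5 (mm10), chr5:70751047-72149037, 1398 kb long. In order along the chromosome these are Gabrg1 (ENSMUSG00000001260, chr5:70751047-70842617), Gabra2 (ENSMUSG00000000560, chr5:70957597-71095849), Gabra4 (ENSMUSG00000029211, chr5:71569749-71658308) and Gabrb1 (ENSMUSG00000029212, chr5:71658113-72149037). Gabrg1, Gabra2 and Gabra4 are on the minus strand and Gabrb1 on the plus strand, where its annotated start overlaps that of Gabra4 by 196 bases. The other listed members lie elsewhere: Gabra3 (ENSMUSG00000031343) at chrX:72432681-72656848, Gabra5 (ENSMUSG00000055078) at chr7:57407672-57510059, and Gabrb2 (ENSMUSG00000007653) at chr11:42419757-42629028. Of the 4 clustered genes, Gabra2 alone had levels without overlap between ERβ cKO (sham) and WT (sham), where 6.33% of all 19938 genes were. Such levels chose Gabra2, so nothing is read from this count. The promoters of the 4 are shown because the genes share a neighbourhood. Each run is 300 bases of RefSeq sequence (GRCm38.p6), from 250 bases before to 50 bases after the gene's start, 5′ to 3′ on the gene's strand, with GC boxes (GGGCGG or its complement CCGCCC) in capitals.

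Gabrg1, chr5:70842568-70842867, minus strand: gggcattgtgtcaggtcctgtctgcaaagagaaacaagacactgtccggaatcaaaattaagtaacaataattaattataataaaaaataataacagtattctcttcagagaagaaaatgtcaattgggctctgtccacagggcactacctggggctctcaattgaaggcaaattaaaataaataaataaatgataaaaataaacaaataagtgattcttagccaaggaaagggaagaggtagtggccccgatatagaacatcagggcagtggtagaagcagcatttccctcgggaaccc
Gabra2, chr5:71095800-71096099, minus strand: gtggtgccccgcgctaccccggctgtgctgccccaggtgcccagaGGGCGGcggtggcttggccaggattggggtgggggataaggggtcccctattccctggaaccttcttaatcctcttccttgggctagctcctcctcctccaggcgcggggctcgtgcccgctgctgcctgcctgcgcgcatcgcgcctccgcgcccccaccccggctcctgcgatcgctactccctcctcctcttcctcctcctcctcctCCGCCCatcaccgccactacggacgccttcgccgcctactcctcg
Gabra4, chr5:71658259-71658558, minus strand: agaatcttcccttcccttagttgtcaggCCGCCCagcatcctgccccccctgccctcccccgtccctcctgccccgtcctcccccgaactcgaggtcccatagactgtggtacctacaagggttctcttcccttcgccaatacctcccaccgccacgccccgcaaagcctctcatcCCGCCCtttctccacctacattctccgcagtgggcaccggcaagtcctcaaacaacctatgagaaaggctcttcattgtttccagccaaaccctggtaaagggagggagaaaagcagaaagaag
Gabrb1, chr5:71657671-71657970, plus strand: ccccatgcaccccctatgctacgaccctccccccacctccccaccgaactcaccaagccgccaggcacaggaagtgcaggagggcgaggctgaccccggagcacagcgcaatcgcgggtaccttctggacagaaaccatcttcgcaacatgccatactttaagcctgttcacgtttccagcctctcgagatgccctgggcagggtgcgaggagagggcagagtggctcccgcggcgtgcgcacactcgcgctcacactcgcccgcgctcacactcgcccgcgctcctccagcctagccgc

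The Gabra2 window is the richest in G and C of the 4, at 70.0%, with 25 CpG dinucleotides and 2 GC boxes. The Gabrb1 window has 66.0% G and C, 25 CpG dinucleotides and no GC box, and the Gabra4 window 58.7%, 12 CpG dinucleotides and 2 GC boxes. The Gabrg1 window is at the other end, with 38.3% G and C and 3 CpG dinucleotides, against a median of 52.7% G and C over 32851 windows of the same length. The RefSeq start of Gabrb1 lies upstream of the start in the annotation used for the counts' names. Both strands were searched for the palindromic estrogen response element GGTCANNNTGACC and for AGGTCA, a half-site of such elements. The cyclic AMP response element TGACGTCA, the GC box GGGCGG and the TATA box TATAAA were searched for as well. Of the subunits, 15 matched the RefSeq table, which held 19 windows for them, some genes having more than 1 start. The palindrome was in 0 of the 19 and in 0.0700% of all windows, and AGGTCA was in 1 of the 19, that of Gabrr3, and in 16.3% of all windows. TGACGTCA was in 0 of the 19 and 1.79% of all windows, GGGCGG in 7 of the 19 and 35.7% of all windows, and TATAAA in 3 of the 19 and 13.6% of all windows. These are matches of letters in these windows only.

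Library totals ran from 16956233 to 18190968 counts, with 1093 to 3578 counts of Gabra2 in each. Astrocyte markers were high, with Slc1a2, the main glutamate transporter of astrocytes, at 9455 to 15579 CPM and Gfap at 1225 to 2117 CPM. Neuronal RNA was present in every library as well, with Camk2a at 2623 to 4292 CPM and Rbfox3, which encodes the neuronal marker NeuN, at 253 to 351 CPM. Esr2 had 0 to 7 counts in each library, so the targeted gene could not check the labels at this depth, and counts per gene do not separate its exon 3. In these bulk pulldowns, fewer cells of a type and less RNA per cell cannot be told apart, and a subunit's RNA may come from astrocytes or from the neuronal RNA in the same pulldown.

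Compared per length of annotated exons, Gabra5 had the highest RNA level of the 7 listed subunits. In WT (sham), Gabra5, whose α5 subunit is typical of hippocampal pyramidal cells, was at 66.0 ± 7.89 CPM per kb (SD, n = 3). Gabra2 came next among the 7 at 24.0 ± 3.72 CPM per kb, well below Gabra5, followed within its spread by Gabra3 at 19.8 ± 1.48 CPM per kb, since the ranges of their mean ± SD met. Gabra4 was at 16.2 ± 3.27 CPM per kb, within the spread of Gabra3, and Gabrb2 at 10.2 ± 3.31, Gabrg1 at 8.21 ± 2.07, Gabrb1 at 5.47 ± 0.946 and Gabrd at 5.26 ± 0.255 CPM per kb, each within the spread of the one before it. Gabrg3 was lowest of the 12 subunits with a mean of at least 1 CPM over all libraries, at 2.09 ± 0.140 CPM per kb. The libraries were made with a stranded kit, but whether the counting used strand is not stated in the sources used here, so reads of Gabra4 and Gabrb1 in their shared bases may have been assigned to either gene, and Gabra5 likewise shares bases with a gene on the opposite strand.

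Gabra2 RNA was at 152, 208 and 189 CPM in the WT (sham) mice. The ERβ cKO (sham) mice had 111, 77.7, 61.5 and 117 CPM. The WT (GDX) mice had 190.2, 183, 196 and 195 CPM. The highest ERβ cKO (sham) mouse, F5, was below the lowest WT (sham) mouse, F1, and the WT (GDX) mice lay inside the range of WT (sham). The mean of 91.8 ± 26.6 CPM (SD, n = 4) in ERβ cKO (sham) was 50.1% of the 183 ± 28.4 CPM (SD, n = 3) in WT (sham), or -0.995 as a log2 fold change (SE 0.21). WT (GDX), at 191 ± 6.11 CPM (SD, n = 4), was at 104% of WT (sham), a log2 fold change of 0.06 (SE 0.09). ERβ cKO (sham) was at 48.1% of WT (GDX), a log2 fold change of -1.07 (SE 0.17). Both comparisons with WT (sham) use the same 3 mice, and the ERβ cKO (sham) and WT (GDX) mice each enter 2 of the 3 comparisons. The mice within ERβ cKO (sham) varied more in Gabra2 than those of the other groups, with a coefficient of variation of 29.0% against 15.5% in WT (sham) and 3.20% in WT (GDX).

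**Figure D1:**
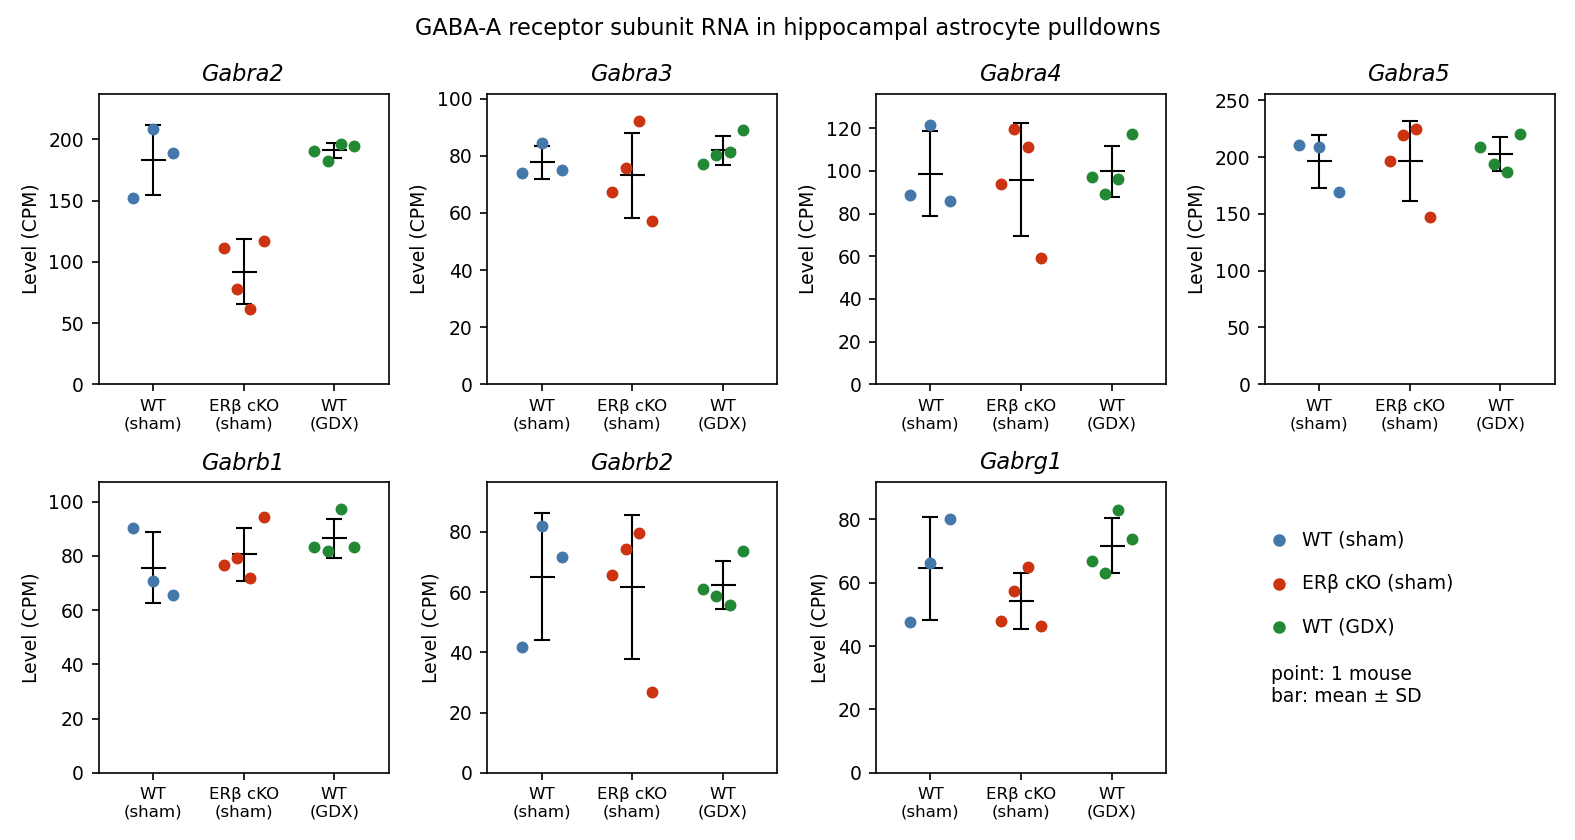
RNA levels of the 7 subunits in CPM (vertical axes, from 0) in each mouse, by group, with black bars for the mean ± SD. Gabra2 sits between 61.5 and 117 CPM in ERβ cKO (sham) and between 152 and 208 CPM in both other groups, and the groups of the other 6 subunits overlap.

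Of the 7 listed subunits, 1 had levels that did not overlap between ERβ cKO (sham) and WT (sham), namely Gabra2, and 6.33% of all 19938 genes in that fit did not overlap. Between WT (GDX) and WT (sham), 0 of the 7 were without overlap, where 8.43% of all 19695 genes were. Gabra2 was again the 1 member without overlap in the comparison of ERβ cKO (sham) with WT (GDX), where 9.82% of all 19759 genes were. These levels chose the members, so nothing is read from the shares.

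The other α subunits did not share the low level of Gabra2. Gabra5 was at 211, 209 and 169 CPM in WT (sham), at 197, 219, 224 and 147 CPM in ERβ cKO (sham), and at 209, 194, 187 and 221 CPM in WT (GDX). The groups overlapped, and the log2 fold change of ERβ cKO (sham) vs WT (sham) was 0.00 (SE 0.14), the closest to 0 of the 7. Gabra4, whose α4 subunit joins δ in receptors outside synapses, was at 88.7, 122 and 85.8 CPM in WT (sham). It was at 93.7, 120, 111 and 59.4 CPM in ERβ cKO (sham) and at 97.2, 89.2, 96.1 and 117 CPM in WT (GDX). Gabra4 was thus highest in WT (sham) F3 and lowest in ERβ cKO (sham) F5, with a log2 fold change of -0.04 (SE 0.22) against WT (sham). Gabra3, an X-linked gene whose α3 subunit is prominent in monoaminergic and early neurons, was at 74.1, 84.5 and 74.9 CPM in WT (sham). Its levels were 67.3, 75.9, 92.3 and 57.2 CPM in ERβ cKO (sham) and 77.2, 80.2, 81.4 and 89.0 CPM in WT (GDX). The ERβ cKO (sham) mice held both the highest and the lowest Gabra3 level of the 11 mice, and the log2 fold change was -0.09 (SE 0.14).

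Both listed β subunits overlapped between all groups as well. Gabrb1, whose promoter end overlaps Gabra4, was at 90.5, 70.9 and 65.6 CPM in WT (sham). It was at 76.5, 79.4, 71.9 and 94.5 CPM in ERβ cKO (sham) and at 83.4, 82.0, 97.3 and 83.3 CPM in WT (GDX). It was the listed subunit with the highest log2 fold change in ERβ cKO (sham) vs WT (sham), 0.09 (SE 0.14), and in WT (GDX) vs WT (sham), 0.19 (SE 0.11). Gabrb2, whose β2 subunit is part of the most common receptor of the adult brain, was at 41.6, 82.1 and 71.7 CPM in WT (sham). Its levels were 65.6, 74.4, 79.6 and 26.7 CPM in ERβ cKO (sham) and 61.1, 58.7, 55.8 and 73.6 CPM in WT (GDX). Gabrb2 had a low mouse in each sham group, WT (sham) F1 and ERβ cKO (sham) F5, and its log2 fold change was -0.08 (SE 0.43).

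Gabrg1, the nearest subunit gene to Gabra2, 115 kb away, came second to it in the size of its difference in both comparisons with ERβ cKO (sham). It was at 47.6, 66.2 and 80.03 CPM in WT (sham), at 48.0, 57.5, 65.1 and 46.3 CPM in ERβ cKO (sham), and at 66.9, 63.0, 82.9 and 73.8 CPM in WT (GDX). The lowest WT (sham) mouse lay among the ERβ cKO (sham) mice, and the highest ERβ cKO (sham) mouse lay just above the lowest WT (GDX) mouse. The log2 fold change was -0.25 (SE 0.17) in ERβ cKO (sham) vs WT (sham), 0.15 (SE 0.15) in WT (GDX) vs WT (sham) and -0.41 (SE 0.12) in ERβ cKO (sham) vs WT (GDX). Over the 6 listed subunits other than Gabra2, the log2 fold change ran from -0.25 to 0.09 with a median of -0.06 in ERβ cKO (sham) vs WT (sham), where the median of all genes was 0.00. In WT (GDX) vs WT (sham) the same 6 ran from -0.06 to 0.19 with a median of 0.06, where the median of all genes was -0.01. They ran from -0.41 to -0.03 with a median of -0.09 in ERβ cKO (sham) vs WT (GDX), where the median of all genes was 0.00.

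**Figure D2:**
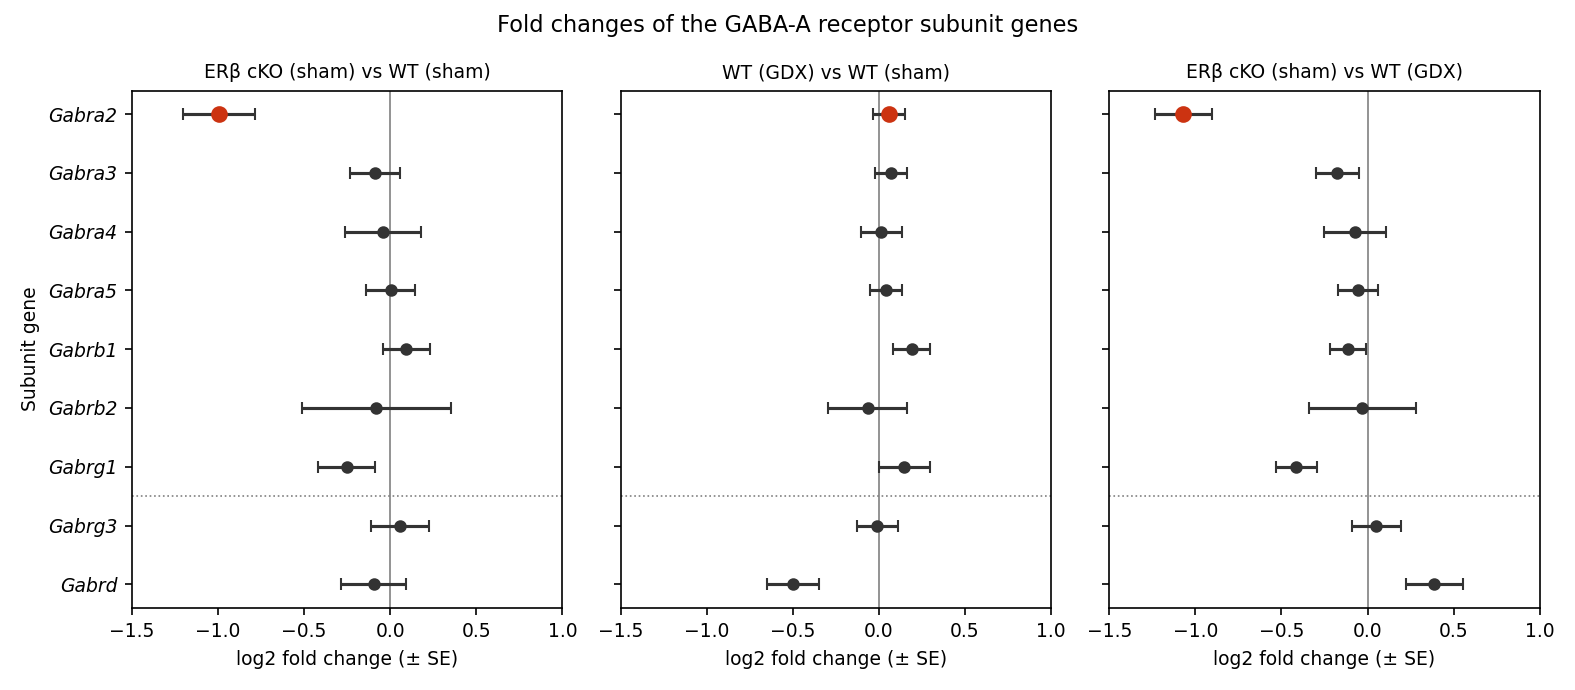
Log2 fold changes (horizontal axes, points, with bars for ± 1 SE) of the 7 listed subunit genes, above the dotted line with Gabra2 in red, and of Gabrg3 and Gabrd, below it, in the 3 comparisons. Gabra2 stands at -0.995 and -1.07 in the comparisons that include ERβ cKO (sham) and at 0.06 between WT (GDX) and WT (sham), while the other listed members lie between -0.41 and 0.19.

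Of the 12 subunits that were not listed, 5 had a mean of at least 1 CPM. Among these, Gabrg3, a γ subunit gene, had group means of 24.9 to 25.98 CPM and overlapped in every comparison. Gabrd, whose δ subunit forms receptors outside synapses, was at 14.6, 14.8 and 15.9 CPM in WT (sham) and at 9.52, 11.3, 11.8 and 10.2 CPM in WT (GDX). All 4 WT (GDX) mice were below all 3 WT (sham) mice, with a log2 fold change of -0.50 (SE 0.15), a pattern that Gabra2 did not have. In that comparison 1 of the 15 tested subunits, 6.67%, was without overlap, where 8.43% of all 19695 genes were, so nothing is read from it. Gabrd was in ERβ cKO (sham) at 17.6, 11.2, 11.6 and 16.1 CPM and overlapped both other groups. The remaining 7 subunits were under 1 CPM on average, and 4 of them, Gabra6, Gabrp, Gabrr1 and Gabrr3, entered no fit. Gabrp had 0 counts in all 11 libraries, which allows up to 0.175 CPM in a library at 3 counts. Gabra6, the α6 subunit gene of cerebellar granule cells, had 4 counts in WT (sham) F1 and 0 in the other 10 libraries. These limits cover counting error only.

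When Gabra2 was set against the mean log2 level of the 6 other listed subunits in the same library, its standing was alike in WT (sham) and WT (GDX) and lower in ERβ cKO (sham). The log2 difference was 0.94, 1.10 and 1.13 in the WT (sham) mice. It was 0.44, -0.27, -0.66 and 0.91 in the ERβ cKO (sham) mice, and 1.08, 1.08, 1.07 and 0.95 in the WT (GDX) mice. ERβ cKO (sham) F5 was only just below WT (sham) F1, and in ERβ cKO (sham) F3 and F4 Gabra2 was below the mean of the others. The means were 1.06 ± 0.10 (SD, n = 3), 0.10 ± 0.70 (SD, n = 4) and 1.04 ± 0.06 (SD, n = 4). ERβ cKO (sham) F5 had the highest Gabra2 level of its group and the lowest level of the 11 libraries in Gabra3, Gabra4, Gabra5, Gabrb2, Gabrg1 and Gabrg3. Its mean log2 level of the 10 neuron markers was also the lowest of the 11, at 9.20, where the others had 9.26 to 9.48, and the part of this in its subunit levels was not tested. Against the same neuron markers, Gabra2 stood at -2.21, -1.73 and -1.74 in WT (sham), between -1.86 and -1.64 in WT (GDX) and at -2.55, -3.15, -3.54 and -2.33 in ERβ cKO (sham), again without overlap of ERβ cKO (sham) with either group.

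Among the α subunits the share of Gabra2 RNA was lower in most ERβ cKO (sham) mice. Per length, Gabra2 was 16.1, 19.6 and 21.5% of the summed level of the 4 listed α subunits in WT (sham). It was 12.8, 8.28, 6.42 and 17.2% in ERβ cKO (sham) and 19.05, 19.2, 20.6 and 17.99% in WT (GDX). On this share ERβ cKO (sham) F5 lay inside the range of WT (sham), and the other 3 ERβ cKO (sham) mice lay below it. Gabra5 was 49.6 to 57.0% of the same sum in WT (sham), 50.2 to 53.7% in WT (GDX) and 55.5 to 60.2% in ERβ cKO (sham). Gabra3 made up 15.8 ± 0.753% of it in WT (sham), 16.0 ± 0.697% in WT (GDX) and 16.5 ± 1.59% in ERβ cKO (sham) (SD, n = 3, 4 and 4). Gabra4 made up 12.8 ± 1.39, 12.6 ± 0.769 and 13.8 ± 2.13% in the same order.

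**Figure D3:**
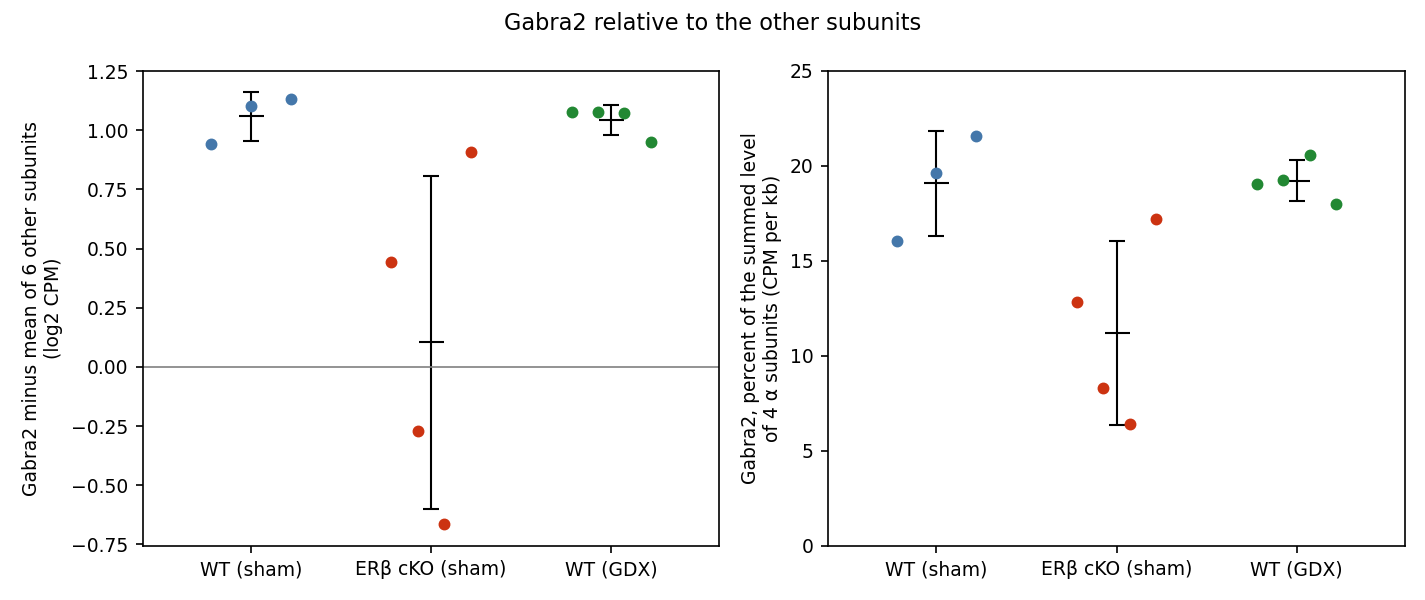
Gabra2 relative to other subunits in each mouse (points), by group, with black bars for the mean ± SD: on the left the log2 level minus the mean log2 level of the 6 other listed subunits, on the right its percent of the summed level of the 4 listed α subunits in CPM per kb. On the left the 4 ERβ cKO (sham) mice lie between -0.66 and 0.91 and the others between 0.94 and 1.13, whereas on the right ERβ cKO (sham) F5, at 17.2%, lies within the range of WT (sham).

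Across the 11 libraries some of the listed subunits varied together more closely than others. Gabra3, Gabra4, Gabra5 and Gabrb2 were correlated in log2 level with Pearson's r from 0.69 to 0.89 in their 6 pairs. Gabra2 had r of 0.09 with Gabra3, -0.06 with Gabra4, -0.19 with Gabra5, -0.03 with Gabrb2 and 0.14 with Gabrb1, and its highest r among the subunits was 0.44, with Gabrg1. Gabrg1 itself had higher r with Gabra3, 0.67, and Gabrb2, 0.57, and lower r with Gabra4, 0.43, Gabra5, 0.15, and Gabrb1, -0.26. Gabrb1 was negatively correlated with Gabrb2, at -0.72. The libraries share their groups, and ERβ cKO (sham) F5 is low in several of these genes, so the values are a description of 11 points.

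Among 15216 other genes with a mean of at least 1 CPM, the 5 whose log2 level was most like that of Gabra2 over the 11 libraries were all of low to moderate level and on other chromosomes where their place is known. Gm11681, a long noncoding RNA gene on chromosome 11, had Pearson's r of 0.97 and Spearman's rho of 0.89 with Gabra2. It was at 13.5, 17.3 and 13.9 CPM in WT (sham), at 11.2, 8.09, 7.03 and 10.7 CPM in ERβ cKO (sham), and at 17.2, 17.1, 15.4 and 14.7 CPM in WT (GDX). Its order within ERβ cKO (sham) was nearly that of Gabra2, with F1 and F5 above F3 and F4. The next were the pseudogene Gm4617 (r 0.94), ENSMUSG00000021020 (r 0.94), which is not in the annotation used, the pseudogene Gm19680 (r 0.91) and 3110070M22Rik (r 0.91). The most opposite patterns were those of Ppm1h (r -0.89), which encodes a protein phosphatase, the pseudogene Gm4735 (r -0.87) and Rbbp5 (r -0.87), which encodes a subunit of histone methyltransferase complexes. Gm4735 had 0 to 3 counts in the WT (sham) and WT (GDX) mice and 141 to 240 in the rest. These were picked as the extremes of many genes, over libraries that share their groups, so no p is given.

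The genes around Gabra2 were not chosen on their levels and could be tested. The count table held 182 genes other than the subunits within 10 Mb of the Gabra2 start, of which 96 were tested in ERβ cKO (sham) vs WT (sham), and 0 of the 96 changed at an adjusted p under 0.1 in edgeR's quasi-likelihood test, where 0.0301% of all genes did. At an unadjusted p under 0.05 there were 5 of the 96, where 5.33% of all genes were, and DESeq2 also called 0. In WT (GDX) vs WT (sham) 0 of 98 changed, where 0.437% of all genes did, with 8 of the 98 at an unadjusted p under 0.05, where 7.98% of all genes were, and DESeq2 called 1. Among the 73 genes of the window with a mean of at least 1 CPM, the log2 fold change of ERβ cKO (sham) vs WT (sham) ran from -0.56, in Hopxos, to 1.02, in Pdgfra, a marker of oligodendrocyte precursors, so that no other gene of the window at that level was as low as Gabra2 at -0.995.

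The genes closest to Gabra2 showed no drop of that kind. Cox7b2, between Gabra2 and Gabra4, was near the lower limit of the data, at 0.41 to 1.05 CPM in WT (sham), 0.40 to 0.73 CPM in WT (GDX) and 0.78 to 1.41 CPM in ERβ cKO (sham). Commd8, which begins 7.54 kb beyond Gabrb1 and encodes a protein of the COMMD family of endosomal sorting, was at 50.7, 64.4 and 48.5 CPM in WT (sham) and at 44.4, 56.0, 54.0 and 50.5 CPM in ERβ cKO (sham), with -0.09 as its log2 fold change (SE 0.14) and an adjusted p of 0.990 in edgeR. On the other side Gnpda2, which encodes glucosamine-6-phosphate deaminase 2, was at 0.04 on that scale (SE 0.17, adjusted p = 0.996), and Guf1, a GTPase of mitochondrial translation, at 0.33 (SE 0.20, adjusted p = 0.948). Gm5867 (0.24, SE 0.20) and Atp10d (0.44, SE 0.40) likewise had adjusted p of 0.966 and 0.967 in edgeR. Corin, and the pseudogenes Gm15617 and Gm15616 inside Gabrb1, were at 2.73 CPM or below in every library.

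The comparison of ERβ cKO (sham) with WT (GDX) had more calls, since 7 of 97 tested genes of the window changed in edgeR's test, 7.22%, where 4.15% of all genes did. At an unadjusted p under 0.05 there were 24 of the 97, where 17.2% of all genes were. Hopx, a homeodomain-only protein that marks some astrocytes and neural stem cells, was at 286 ± 17.6 CPM in WT (GDX) and at 191 ± 38.3 CPM in ERβ cKO (sham) (SD, n = 4 each), and fell by 0.59 in log2 terms (SE 0.12, adjusted p = 0.0238). Its antisense gene Hopxos fell by 0.73 (SE 0.17, adjusted p = 0.0461), and since the use of strand in the counting is not stated, reads of the pair may be shared. Klhl5 fell by 0.38 (adjusted p = 0.0709), Commd8 by 0.36 (adjusted p = 0.0768) and Srd5a3, a steroid 5α-reductase family gene, by 0.50 (adjusted p = 0.0920). Kdr, the endothelial VEGF receptor, rose by 0.71 (adjusted p = 0.0598) and Nwd2 by 0.43 (adjusted p = 0.0633). Commd8 had a mean of 54.5 CPM in WT (sham), 51.2 CPM in ERβ cKO (sham) and 65.4 CPM in WT (GDX). Srd5a3 had 17.6, 12.7 and 17.8 CPM in the same order. In each of the 7 genes the WT (sham) mean lay between those of both other groups. Of these, Hopx alone passed edgeR's test with each mouse left out in turn, with an adjusted p of at most 0.0935. In the fits that left out F1 or F3 of ERβ cKO (sham), or F1 or F3 of WT (GDX), Hopx was the 1 gene of the 7 to keep the call. Commd8 and Srd5a3 lost the call with scaling by library size alone and with all 3 groups in 1 fit, and Kdr in the latter. Summed endothelial and pericyte markers, Kdr not among them, were at 152 to 194 CPM in ERβ cKO (sham) and at 83.6 to 141 CPM in WT (GDX), and their part in the higher Kdr was not tested.

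**Figure D4:**
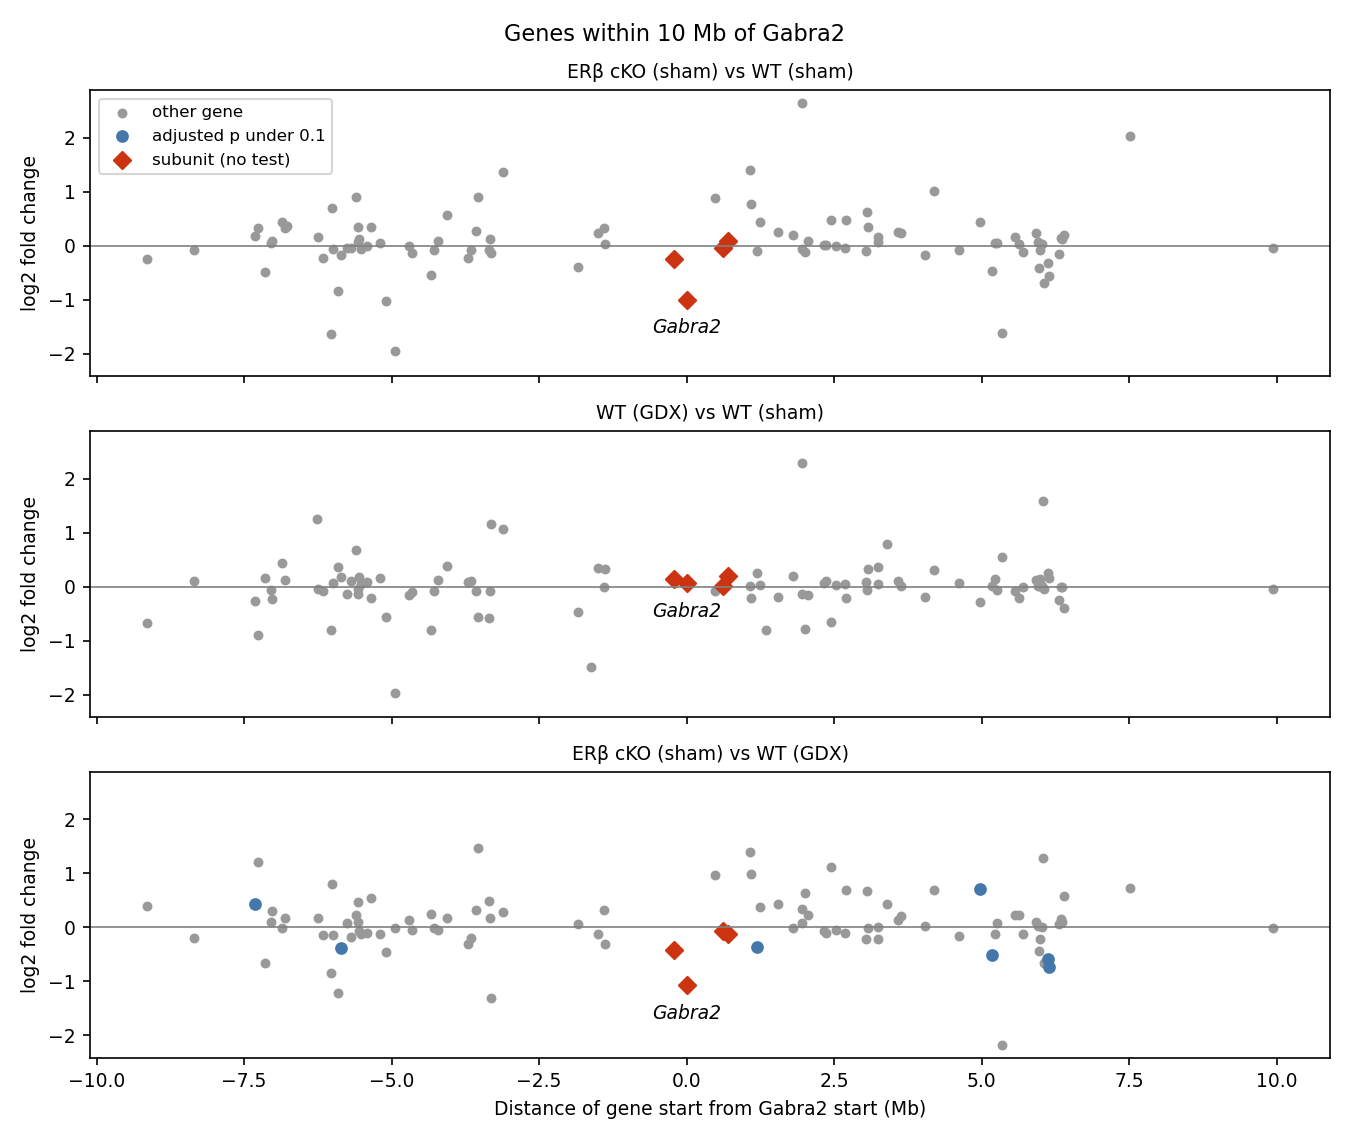
Log2 fold changes (vertical axes) of the tested genes within 10 Mb of Gabra2 by the distance of their start from that of Gabra2 in Mb (horizontal axis), in the 3 comparisons, with subunits as red diamonds and genes with an adjusted p under 0.1 in blue. Gabra2 is at -0.995 in the top panel, 0.06 in the middle and -1.07 at the bottom, with 0, 0 and 7 blue points, and the grey points farthest from 0 are genes with a mean under 1 CPM.

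The rest of the GABA system was described with 40 genes in 4 lists, none of them receptor subunits. In ERβ cKO (sham) vs WT (sham), 0 of the 40 changed in edgeR's test (0 at an unadjusted p under 0.05, where 5.33% of all genes were, and 0 in DESeq2), with a median log2 fold change of -0.02. In WT (GDX) vs WT (sham), 0 of the 40 changed (9 at an unadjusted p under 0.05, where 7.98% of all genes were, and 0 in DESeq2), with a median of 0.01. Of the 40, 5 changed in ERβ cKO (sham) vs WT (GDX), 12.5%, where 4.15% of all genes did, with a median of -0.06, and the values of 4 of them follow. At an unadjusted p under 0.05 there were 13 of the 40, where 17.2% of all genes were.

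Slc6a11, which encodes GAT-3, the main GABA transporter of astrocytes, was at 397, 399, 495 and 530 CPM in ERβ cKO (sham) and between 587 and 604 CPM in WT (GDX) with no overlap (log2 fold change -0.40, SE 0.10, adjusted p = 0.0633 in edgeR). Abat, the GABA transaminase that breaks GABA down, fell by 0.33 (SE 0.09, adjusted p = 0.0787). Dbi, which encodes an endogenous ligand of the benzodiazepine site, fell by 0.44 (SE 0.11, adjusted p = 0.0573). Iqsec3, a partner of gephyrin at inhibitory synapses, rose by 0.46 (SE 0.11, adjusted p = 0.0447), from 147 ± 16.9 CPM to 203 ± 25.1 CPM (SD, n = 4 each). WT (sham) lay between both groups in the mean of each of these 4 genes, and its differences from ERβ cKO (sham) had adjusted p of 0.948 or more. Each of the 4 lost the call in the fits that left out F1 or F3 of ERβ cKO (sham) or F3 or F4 of WT (GDX), and Slc6a11, Abat and Dbi also without F1 or F2 of WT (GDX), with adjusted p up to 0.252. Abat lost it with scaling by library size alone as well. Without ERβ cKO (sham) F5, 9 of the 40 were called, in a fit that called 2450 of all genes, against 820 with all mice. Gad1 and Gad2, the GABA-making enzymes, and the GABA-B receptor genes Gabbr1 and Gabbr2 did not pass in any of the 3 comparisons.

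**Figure D5:**
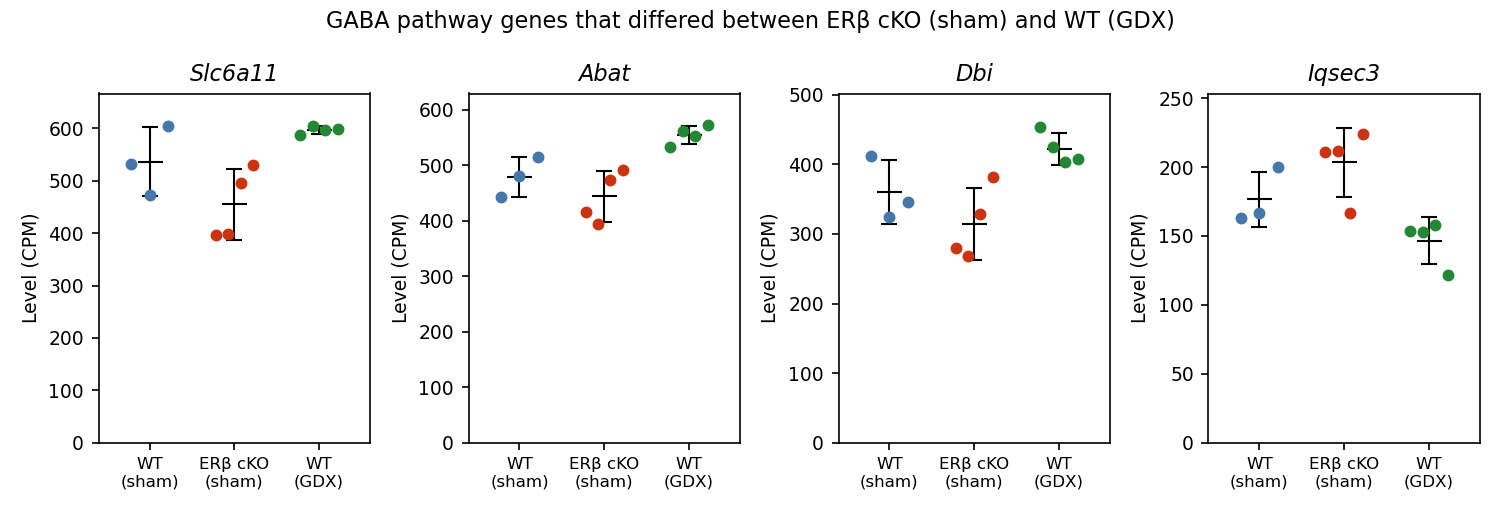
Levels in CPM (vertical axes, from 0) of 4 GABA pathway genes that changed in ERβ cKO (sham) vs WT (GDX), in each mouse (points) by group, with black bars for the mean ± SD. Slc6a11, Abat and Dbi are lower in all 4 ERβ cKO (sham) mice than in all 4 WT (GDX) mice, Iqsec3 is higher, and WT (sham) overlaps at least 1 of these groups in each gene.

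Markers of cell types moved in part with these results, and the part of none of them in the levels of Gabra2 was tested. All 12 astrocyte markers had a negative log2 fold change in ERβ cKO (sham) vs WT (sham), with a median of -0.17 and 0 called in edgeR (3 at an unadjusted p under 0.05, where 5.33% of all genes were), and a summed level of 17469 to 21331 CPM against 19918 to 23021 CPM. Of the 12, 9 were called lower in ERβ cKO (sham) vs WT (GDX), where 4.15% of all genes were called, with a median of -0.46, and their sum in WT (GDX) was 23222 to 28254 CPM. In WT (GDX) vs WT (sham), 11 of the 12 had a positive log2 fold change, with a median of 0.22. There 2 were called higher, where 0.437% of all genes were called in either direction. The part of the astrocyte markers in the lower Slc6a11, Abat and Dbi was not tested either. The 10 neuron markers had medians of -0.05 in ERβ cKO (sham) vs WT (sham), with 0 called and 0 at an unadjusted p under 0.05, and -0.02 against WT (GDX), where Camk2a was called higher. Their sums were 9150 to 11584 CPM in ERβ cKO (sham), 9756 to 10960 CPM in WT (sham) and 9710 to 10151 CPM in WT (GDX). The 8 interneuron markers had medians of 0.28 and 0.39 in the same comparisons, with 0 called and with 1 and 2 at an unadjusted p under 0.05, where 5.33% and 17.2% of all genes were, and a summed level of 59.2 to 125 CPM over all libraries.

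Markers of other cells moved further in ERβ cKO (sham) vs WT (sham). The 6 ependymal markers had a median of -0.94 with 0 called in edgeR (4 at an unadjusted p under 0.05, where 5.33% of all genes were). Their sum was 21.1 to 41.2 CPM in ERβ cKO (sham), 44.8 to 52.7 CPM in WT (sham) and 18.9 to 41.4 CPM in WT (GDX). The sums of ERβ cKO (sham) and WT (sham) did not overlap. Of 7 tested choroid plexus markers, 3 were called lower, Clic6, Slc4a5 and Kcnj13, where 0.0301% of all genes were called in either direction, and the median was -3.59. Choroid plexus markers summed to 56.1 to 197 CPM in WT (sham) and to 21.9 to 30.5 CPM in both other groups, with Kcnj13 and Otx2 at 0 counts in 6 of 11 libraries. For oligodendrocyte precursors the median of 5 markers was 0.70, and for endothelium and pericytes that of 6 was 0.84. Each of these lists had 0 called and 3 at an unadjusted p under 0.05 in edgeR, where 5.33% of all genes were. Precursor markers summed to 149 to 219 CPM in ERβ cKO (sham) and 129 to 163 CPM in WT (sham), and endothelial and pericyte markers to 152 to 194 CPM and 81.4 to 163 CPM, and both sums overlapped between the groups. In ERβ cKO (sham) vs WT (GDX), 2 of the 5 precursor markers were called higher and 1 lower, where 4.15% of all genes were called. Of the ependymal, choroid plexus, endothelial and pericyte markers, 0 were called there.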

How the data were processed

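RNA was measured in 11 mouse hippocampal RiboTag pulldowns, 1 library per mouse, grouped by the sample labels. The authors made libraries with a stranded kit, sequenced single-end 50 base reads, used bcl2fastq 2.17 and Trimmomatic before alignment to mm10 and gene counting in QuasR, and the deposited values are raw counts with no normalization. The strand setting, the annotation and the handling of reads that match several places are not stated in the sources used here. Of 39017 identifiers, 37693 were named from GENCODE M21, and 1324, with 0.492% of counts, kept their identifiers.

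For each pair of groups, a gene was dropped where over 3 samples had a count below 1. Counts were scaled by TMM and fitted with the robust quasi-likelihood test of edgeR 4.0.16 (with limma 3.58.1 in R 4.3.3), with Benjamini-Hochberg adjustment over all genes tested and an adjusted p under 0.1 as the call, after the study's threshold. CPM used TMM over all 11 libraries, log2 CPM a prior count of 2, and CPM per kb the summed length of annotated exons. Totals of 16956233 to 18190968 counts put every listed subunit far above counting noise, and the number of mice limits the precision.

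The members and the lists were chosen with earlier results of these data known. The subunits' folds come from the same fit and carry no p. The rule for named genes took the subunits, every GABA pathway gene and every gene within 10 Mb of Gabra2 that was called, with otherwise the smallest p values and the 3 nearest tested genes on each side of the cluster, and the genes most and least like Gabra2. Hap1, Tspo, Maob and others that this rule also covers are given in the counts. Some genes of the lists are not reported here by name and stand only in the counts over a list. Alternatives were DESeq2 1.42.0 as the test and for size factors, library size alone, no filter, filterByExpr, the mouse number as a block, a shared fit of the 3 groups, a threshold of 0.05, a window of 5 Mb, 0.5 CPM added, other reference sets and leaving out each mouse. Mouse numbers do not mark pairs in the labels. Nothing says more of the mice of a group than that they are separate animals, so p-values measure the spread between them.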

Additional observations from a re-analysis of the deposited data

Results flagged for a closer look

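In 36 groups of 4 mice checked, 3 held a mouse whose gap to the next was large against the range of its group, where chance alone gives about 1 in 20. Gabrb1 was highest in WT (GDX) F3, at 97.3 CPM, with the other 3 WT (GDX) mice between 82.0 and 83.4 CPM. Gabra2 against the 6 other listed subunits was lowest in WT (GDX) F4, at 0.95 on the log2 scale, with the other 3 between 1.07 and 1.08. Iqsec3 was lowest in WT (GDX) F4, at 121 CPM, with the other 3 between 153 and 158 CPM. In that library the summed ependymal markers were also lowest of the 11, at 18.9 CPM, and the part of this was not tested.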

How the results depend on the processing

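The direction of Gabra2 was the same in every setting run in both comparisons with ERβ cKO (sham). These settings refit the counts that had set Gabra2 apart, so they describe the processing and give no further support. Its log2 fold change in ERβ cKO (sham) vs WT (sham) was -1.17 to -0.98 over 7 other settings and -1.13 (without ERβ cKO (sham) F5) to -0.84 (without ERβ cKO (sham) F4) with each mouse left out, and against WT (GDX) -1.27 to -1.01 and -1.21 to -0.91. Its standing against the other subunits moved from -1.22 to -0.70 and from -1.21 to -0.68 in the same comparisons with each mouse left out. Between WT (GDX) and WT (sham) Gabra2 was -0.06 to 0.16 with each mouse left out, and its sign there turned without WT (sham) F1.

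Counts of called genes moved more, and the cause was not tested. In ERβ cKO (sham) vs WT (sham), 6 genes changed, against 39 with no filter, 52 in DESeq2, 16 with all 3 groups in 1 fit and 7 (without WT (sham) F3) to 67 (without WT (sham) F4) with a mouse left out. In WT (GDX) vs WT (sham), 86 changed, against 289 with no filter, 53 with filterByExpr, 206 in DESeq2, 25 with all 3 groups in 1 fit, 36 at an adjusted p under 0.05 and 11 (without WT (sham) F3) to 275 (without WT (sham) F4). In ERβ cKO (sham) vs WT (GDX), 820 changed, against 1628 in DESeq2, 229 at an adjusted p under 0.05 and 104 (without WT (GDX) F3) to 2450 (without ERβ cKO (sham) F5).

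Of the 40 GABA pathway genes, 5 changed in ERβ cKO (sham) vs WT (GDX), 2 at an adjusted p under 0.05, and 0 (without ERβ cKO (sham) F1 or F3 or WT (GDX) F3) to 9 (without ERβ cKO (sham) F5). In WT (GDX) vs WT (sham), 0 to 3 changed with a mouse left out, 3 without WT (sham) F4. Within 10 Mb of Gabra2, 7 genes changed in ERβ cKO (sham) vs WT (GDX), 4 with all 3 groups in 1 fit, 2 at an adjusted p under 0.05, 2 within 5 Mb and 1 (without ERβ cKO (sham) F1 or F3 or WT (GDX) F1 or F3) to 14 (without ERβ cKO (sham) F5). In WT (GDX) vs WT (sham), 0 changed there, 1 with no filter, 1 in DESeq2 and 0 to 2 with a mouse left out, 2 without WT (sham) F4. The counts of 9 and 14 came from the fit in which 2450 of all genes changed. Those of 3 and 2 without WT (sham) F4 came from the fit in which 275 did.

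Same-numbered mice of different groups correlated in their deviations from the group means at -0.27 to 0.19 over 9 pairs, and the 31 other pairs at -0.23 to 0.17. Same-numbered pairs of ERβ cKO (sham) and WT (GDX) were at 0.19 (F4), 0.04 (F3) and 0.03 (F1), and those with WT (sham) at -0.27 to 0.09. These values do not settle whether mice were paired. With the mouse number as a block, the counts were 76 and 3117 for all genes in ERβ cKO (sham) vs WT (sham) and WT (GDX), 12 for the pathway genes in the latter, and 2 and 18 for the genes within 10 Mb of Gabra2. With 3 or 4 mice in a group, a mouse left out leaves an arm of 2 or 3.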
